A study of Mus musculus with 26 samples.

Results

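Each of 24 single wild-type mouse macrophages was described here by its editing load, the number and share of listed C-to-U sites at which its RNA carried editing. The 24 cells made up 24 of the 26 samples of the series, and all of them were taken, since every cell column of the deposited single-cell list was used. The list held 171 sites in 89 genes, so that 4104 values were possible. A value was the fraction of reads at a site that carried the edited base, written here as a rate in percent, and a site was called covered in a cell when a rate was given and edited when that rate was above 0. The columns of the list are numbered 6 to 29 and carry no cell names. A cell is therefore called by its column number, which is a position in the table and not one of the cell numbers in the sample labels.

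The study asked whether editing rates measured in bulk reflect like rates in each cell or an average over unlike cells. Macrophages were grown from bone marrow of young adult C57BL/6J mice with 20 ng/ml of M-CSF, the growth factor that drives macrophage maturation, and were harvested between day 7 and day 9. The 24 cells were wild type, were unstimulated beyond that culture, came from the same mouse, and were caught on a microfluidic chip on which their cDNA was made. Besides them, 1 bulk wild-type library and 1 bulk Apobec1-/- library were sequenced, and no single knockout cell was measured, so no background rate without the enzyme is available for a cell. With a single mouse behind them, the 24 cells measure the spread between cells of that mouse only.

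C-to-U editing is the deamination of a cytidine in messenger RNA to uridine, which sequencing reads as thymidine. In macrophages it is carried out by APOBEC1, a cytidine deaminase first known for editing the transcript of apolipoprotein B in the intestine, which works with RNA-binding partners such as RBM47 and A1CF. Most of its sites lie in 3′ untranslated regions, the part of a transcript after the coding sequence that holds binding sites for microRNAs and proteins, so that the protein encoded is not altered.

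The listed sites followed that description. GENCODE vM21 annotated 167 of the 171 sites as 3′ untranslated region, 3 as intron (2 in Fam129a and 1 in Ahcyl2) and 1 as coding sequence, in Akr1a1. A site counted as 3′ untranslated if any transcript placed it there. The authors' own labels were 161 UTR3, 2 ncRNA_UTR3, 6 intronic and 2 exonic. They differ in calling the Slc44a1 sites intronic and the Selenof site exonic. The base before the edited C was A at 141 sites, or 82.5%, against 25.2% of 10400 other C on the same strand within 250 bases of a listed site. The letters TGAT occurred on the strand of the site in the 18 bases after the edited C at 9.94% of the listed sites and after 7.05% of the other C. A match of these letters is a description and not a binding site.

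The sites below carry the results that follow, and each is given with 10 bases before and 18 after the edited C, 5′ to 3′ on the transcribed strand, from the RefSeq GRCm38.p6 reference (build mm10). The edited C is in capitals. The first pair was edited in all 24 cells. Cybb and Lamp2 are the genes whose mean rates over their sites ran most nearly with the load. That ranking is among genes covered in at least 20 cells and edited in at least 6. Sh3bgrl, Cd36 and Tgfbi held the highest rate of cells at either end of the order, and Rnase4 held the highest rate of all. All 8 lie in 3′ untranslated regions.
B2m, chr2:122152892-122152920, plus strand: accctctgtaCttctcattacttggatgc
Spp1, chr5:104440910-104440938, plus strand: agcaaatttaCtgaaacaagcagaattaa
Cybb, chrX:9436431-9436459, minus strand: tgctcttgttCgcttagcatccttagagc
Lamp2, chrX:38420721-38420749, minus strand: tttgcattgaCtgctacagcacttactaa
Sh3bgrl, chrX:109161382-109161410, plus strand: ctagactgtaCttggcaaaaattcaatat
Cd36, chr5:17783069-17783097, minus strand: aaatcttgcaCttttattaaaagtccatc
Tgfbi, chr13:56639191-56639219, plus strand: atgagttgaaCtgtttctgtcaagtatgt
Rnase4, chr14:51105484-51105512, plus strand: ttatgcattaCatgtattcagatagtatc

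Of these, all but the Cybb site have A directly before the edited C, where the Cybb site has T.

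The list was made by the authors from sites edited in at least 3 of the cells, and each cell helped to choose its own sites. Reads per site are not part of the list. The depth behind a rate is thus unknown, no interval can be given for a single rate, and a rate of 0 in a thinly covered cell may be editing that was missed. Sites without a value, 7 to 36 per cell, were left out of every share. Exact (Clopper-Pearson) 95% intervals are given for the share of covered sites edited. They treat sites as independent, which sites of 1 transcript are not, and they cover counting error over sites only. Of 9 macrophage marker genes, 7 had a listed site covered in at least 17 of the cells, among them Itgam, Itgb2, Cybb and Cd36. Of 15 markers of other cell types 1 was listed, Cd34, which was covered in 10 cells. A marker could be listed only if its transcript was edited, so a marker that is missing says nothing about its expression. The list holds no expression values, so the identity of a cell could not be checked.

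Cells differed more in how many sites they edited than in how many were covered. Covered sites ran from 135 in column 16 through a median of 150 to 164 in column 23, a spread of 7.08 sites (SD, n = 24) around a mean of 150.3. Edited sites ran from 32 in column 29 through a median of 55 to 84 in column 21, with an SD of 12.9 around a mean of 53.5. The share of covered sites that was edited averaged 35.5% ± 7.98 (SD, n = 24). Its lowest value was 20.9% in column 29, with an interval from 14.8 to 28.2%, and its highest 52.2% in column 21, with an interval from 44.2 to 60.1%. These intervals do not overlap, but the cells were picked as the extremes of the 24. The interval lay wholly above the median share of 36.8% in columns 21 and 27 and wholly below it in columns 9, 11, 26, 28 and 29. In the other 17 cells it held the median. The median comes from the same cells, the 24 intervals are not adjusted for their number, and sites are not replicates. Which cells differ from the median was therefore not tested.

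**Figure D1:**
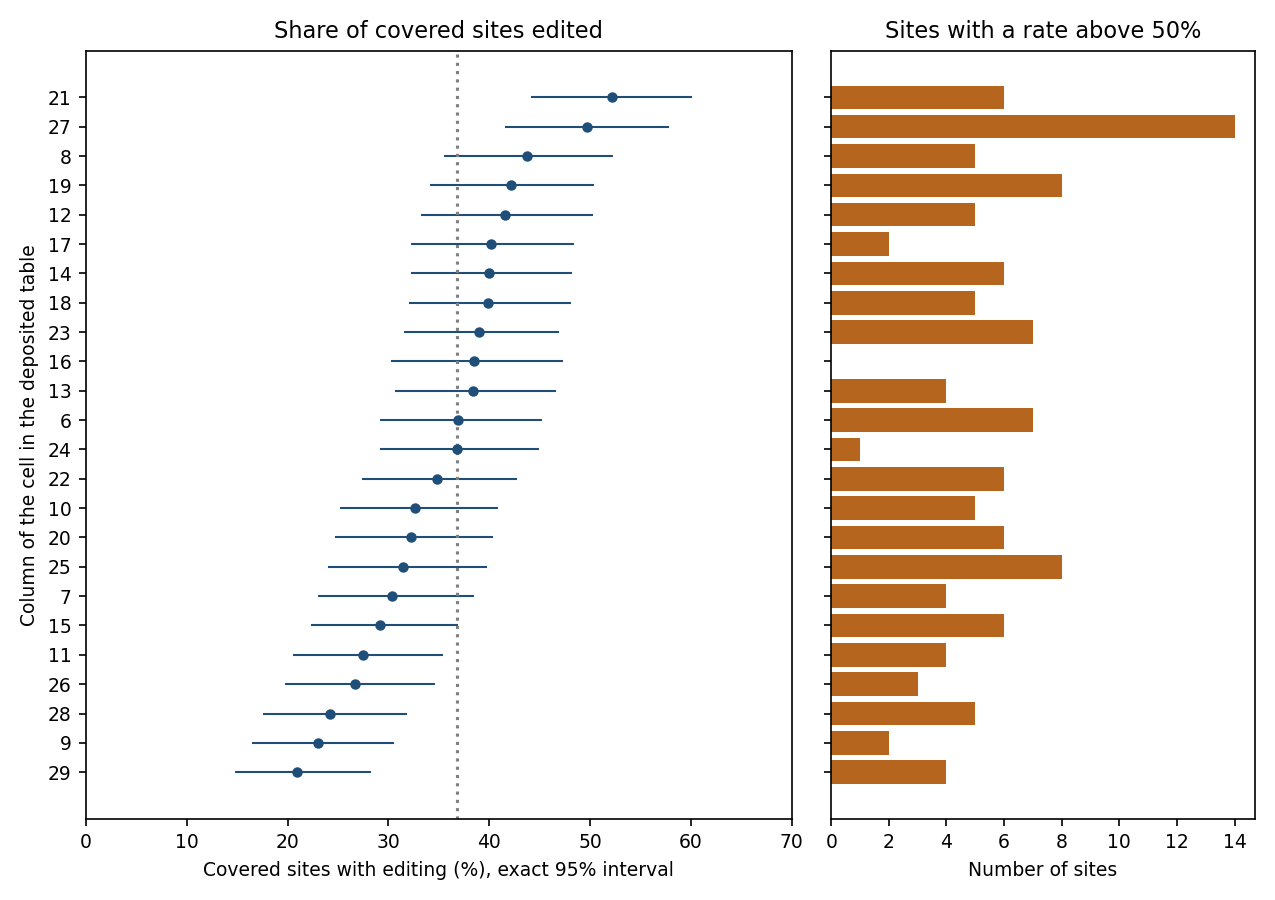
Editing load of the 24 cells, ordered by the share of covered sites edited. The left panel gives that share in percent with its exact 95% interval and the median as a dotted line; the right panel gives the number of sites with a rate above 50%, and shows 20.9% at column 29, 52.2% at column 21, no such site in column 16 and 14 in column 27.

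Coverage went only partly with the load. Over the 24 cells, which share a chip run, a mouse and a list chosen on them, Pearson's r between covered and edited sites was 0.378 and Spearman's rho 0.426. Between covered sites and the share edited r was 0.179 and rho 0.193. Column 16, with the fewest covered sites, had a share of 38.5%, above the median, and column 15, with 161 covered sites, one of 29.2%, below it. Among the 63 sites of 34 genes that had a value in every cell, so that the denominator was the same throughout, edited sites ran from 20 in columns 26 and 29 through a median of 30 to 40 in columns 21 and 27. When each cell was scored only at sites edited in at least 3 other cells, the share ran from 20.3% in column 9 through a median of 35.6% to 49.0% in column 21, a loss of 0.520 to 3.27 percentage points per cell.

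Counted by genes, the range was as wide. Genes with at least 1 covered site numbered 61 to 82 per cell, and genes with at least 1 edited site ran from 19 in columns 26 and 29 through a median of 29.5 to 49 in column 21. As a share of covered genes this was 25.7% in column 29 and 59.8% in column 21. The mean rate over covered sites, zeros included, ran from 5.60% in column 9 through 7.97% to 14.4% in column 27. The median rate of the edited sites alone ran from 12.8% in column 28 through 19.3% to 25.9% in column 27. The share of sites edited and the mean rate, which are built from the same values, had r of 0.896 over the cells, while the share and the median rate of the edited sites had r of 0.367.

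At the top of the order, column 21 edited 84 of 161 covered sites, in 49 genes. Its highest rates were 83.3% in Sh3bgrl, 62.5% in Sypl, a vesicle membrane protein, 57.9% in Calu, a calcium-binding protein of the endoplasmic reticulum, 56.0% in Msn, which links the membrane to actin, and 54.8% in B2m, the invariant chain of MHC class I molecules. Column 27 edited 77 of 155 sites in 40 genes and had 14 rates above 50%, the highest count of any cell. These were led by 90% in Cd36, a scavenger receptor for lipoproteins and fatty acids, 83.3% in Arl8b, a GTPase that positions lysosomes, 80.0% in Tmed5, a cargo receptor of the early secretory pathway, and 76.9% in App, the amyloid precursor. Of the 14, 4 were sites of App, so the count is over 11 genes. Column 8 edited 63 of 144 sites in 31 genes, with 77.1% in Dynlt3, a dynein light chain, 75% in Vps35, a retromer subunit, and 66.7% in Degs1, the dihydroceramide desaturase. The site with the highest rate differed between columns 21, 27 and 8, while the Degs1 site was above 50% in both columns 27 and 8.

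At the bottom, column 29 edited 32 of 153 covered sites in 19 genes. It still held a rate of 88.0% in Tgfbi, a secreted matrix protein, and rates of 60.0% in Rsu1, 53.4% in B2m and 53.1% in Msn. Column 9 edited 34 of 148 sites in 22 genes, with only 2 rates above 50%, and these were 93.8% in Cd302, a C-type lectin receptor, and 83.3% in F13a1, the catalytic chain of a coagulation transglutaminase. Column 28 edited 36 of 149 sites in 21 genes, with 83.3% in Cd36, 72.7% in Nptn, a cell adhesion protein, and 71.4% at a site listed for the overlapping genes Noc2l and Samd11. A low load therefore did not mean that every rate of the cell was low.

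The next cells down from column 8 had shares near 40%. Column 19 edited 64 of 152 sites and held 8 rates above 50%, led by Nptn at 85.7% and Cybb, the heme-binding chain of the phagocyte NADPH oxidase, at 77.8%. Column 12 edited 57 of 137, with Atp6ap2, which accompanies the vacuolar proton pump, at 93.3% and the taurine transporter Slc6a6 at 80.0%. Column 17 edited 61 of 152 and had just 2 rates above 50%, in Rnase4, a secreted ribonuclease, at 94.7% and in Lamp2, a lysosomal membrane protein, at 90%. Column 14 edited 62 of 155, led by Igf2r, the mannose 6-phosphate receptor, at 70%. Column 18 edited 61 of 153, led by Degs1 at 85.7%. Column 23, the cell with the most covered sites, edited 64 of 164, led by the receptor tyrosine kinase Axl at 81.8% and by Lamp2 at 80.0%.

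In the middle of the order, column 16 edited 52 of 135 sites and none above 50%, its highest rate being exactly 50% in App. Column 13 edited 58 of 151, led by the choline transporter Slc44a1 at 88.2%. Column 6 edited 55 of 149, led by Ms4a6d at 75%. Column 24 edited 57 of 155 with a single rate above 50%, 83.3% in Stx7, a syntaxin of late endosomes. Column 22 edited 55 of 158, with Atp6ap2 at 78.6% among its 6 rates above 50%. Column 10 edited 48 of 147, led by Ostf1 at 72.7%.

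Column 20 edited 47 of 146 sites, led by Bcap29, a protein of the endoplasmic reticulum, at 93.3%. Column 25 edited 45 of 143 and yet held 8 rates above 50%, as many as column 19, among them Selenof, a selenoprotein of the endoplasmic reticulum, at 87.5% and B2m at 71.8%. Column 7 edited 44 of 145, led by Arf4, a GTPase of the Golgi, at 81.8%. Column 15 edited 47 of 161, led by the cold-shock RNA-binding protein Ybx3 at 83.3%. Column 11 edited 41 of 149, led by Dynlt3 at 90.3%, and column 26 edited 39 of 146, led by Cybb at 61.5%. Neighbours anywhere in the order differed by less than the intervals of their shares.

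Rates above 50% were few and scattered. They made up 123 of the 3608 covered values, or 3.41%, and 9.59% of the 1283 edited values, and fell on 87 sites in 53 genes. The count per cell ran from 0 through a median of 5 to 14. Another 35 values were exactly 50%, 33 values in 19 cells were above 75%, 5 values in 5 cells were above 90%, and none reached 100%. Between the share of sites edited and the count of rates above 50%, r was 0.395 and rho 0.355 over the 24 cells, and without column 27 r fell to 0.203.

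The genes behind these rates differed from cell to cell. In 29 genes a rate above 50% was seen in 1 cell only, and in 14 genes in 3 or more cells. Nptn passed 50% in 10 cells, Atp6ap2 in 9, B2m in 7, App, Cd36 and Msn in 5 each, and Cybb and Sh3bgrl in 4 each. These genes had 5 (Sh3bgrl) to 15 (App) listed sites, so each had more values that could pass than a gene with 1 site. Set against the covered values of each gene, rates above 50% were less frequent in App, Msn and Cybb than the 3.41% over all covered values. They were more frequent than that in Nptn, B2m, Cd36 and Sh3bgrl and close to it in Atp6ap2. The 7 cells of B2m all passed at the single site at position 122152902, where the rate ran from 27.6% through a median of 41.9% to 71.8% and was 39.8% in bulk. Nptn, in contrast, passed at several of its 7 sites. Of the 123 rates above 50%, 53 fell on sites edited in at most 5 cells and 23 on sites edited in 12 or more. The former group held 86 and the latter 32 of the 171 sites, so per listed site such rates were not more frequent in the former. A cell had on average 13.75 edited sites in the former group and 23 in the latter. Rates above 50% were thus a larger part of the edited values at the rarely edited sites. Both groups were formed from these same values.

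The edited sites of a cell fell into commonly and rarely edited ones, a division made from the same values and given as a description. Of the 171 sites, 86 were edited in 3 to 5 cells, 53 in 6 to 11 and 32 in 12 or more. All 24 cells edited 8 sites, 5 in B2m and 3 in Spp1, the secreted phosphoprotein osteopontin. Among the 32 common sites a cell edited 16 (column 29) to 27 (column 23), with a median of 24. Among the 86 rare sites the number ran from 4 in column 29 through a median of 11.5 to 32 in column 21, which was 5.56 and 41.6% of the rare sites covered in those cells. Columns 21 and 27 edited 25 common sites each, as did columns 7, 12, 15, 16 and 19, while their rare sites numbered 32 and 24 and their sites edited in 6 to 11 cells 27 and 28, the highest counts of any cell. The 24 rare sites of column 27 lay close to the 21 of column 14 and the 20 of columns 8, 18 and 23. In column 29 both kinds were low, with 51.6% of covered common sites edited, the lowest share of any cell.

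**Figure D2:**
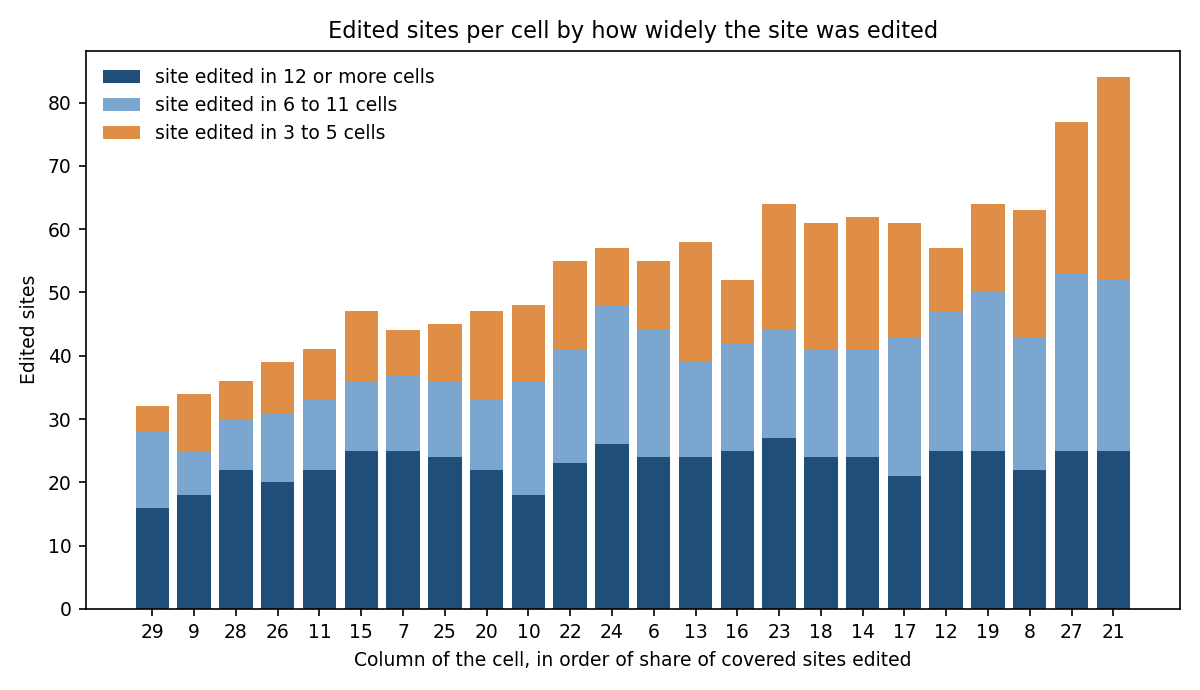
Edited sites per cell, in order of the share of covered sites edited, stacked by the number of cells in which each site was edited. The dark part, common sites, lies between 16 and 27 in every cell, while the orange part, sites edited in 3 to 5 cells, runs from 4 in column 29 to 32 in column 21.

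How widely a cell's sites were shared is built from the same edited values as the load, so it is no separate support and is given as a description. For each cell, the median number of other cells that edited one of its edited sites ran from 6 in columns 8, 10, 21 and 27 to 11.5 in column 28. Over the 24 cells its r with the share edited was -0.790. Over the 276 pairs of cells, sites edited in both made up 19.2% of those edited in either for columns 8 and 9, the lowest pair, 33.3% at the median, and 48.1% for columns 19 and 24, the highest. A pair had 12 to 40 edited sites in common.

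Sites on the authors' bulk list were edited more often within each cell than the others. The bulk list, which compares the wild-type with the Apobec1-/- library, held 55 of the 171 sites, in 28 genes, and 116 were not on it. At the bulk-listed sites a cell edited 30.8% (column 29), at the median 50%, and at most 63.0% (column 27) of those covered. At the other sites it edited from 15.6% (column 26) through 29.1% to 48.6% (column 21). The means were 49.3% ± 9.28 and 28.2% ± 8.62 (SD, n = 24 cells). The difference within a cell averaged 21.2 percentage points (SD 7.98) and was positive in 24 of 24 cells, from 7.78 in column 20 to 36.4 in column 25. The 24 cells are of 1 mouse and no replicates of it, and the bulk list was itself made from editing rates, so the difference is given as a description, without a test. Bulk-listed sites had a value in 94.5% of cells against 84.8% for the others. Among sites covered in all 24 cells the difference was also 21.2 points, with the read depth at them unknown.

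The load of a cell at these 2 sets of sites went together in part. No site is in both sets, but some genes are. App had 9 of its 15 sites on the bulk list and Atp6ap2 4 of its 11, so the sets share transcripts and are not independent. With 1 site per gene the r was lower, as given below. The share edited at bulk-listed sites and that at other sites had r of 0.605 and rho of 0.586 over the 24 cells, and r of 0.497 without columns 9 and 29, the cells farthest from the median on the first measure. Cells could also part on the 2 measures. Column 25 edited 54.9% of its bulk-listed sites but 18.5% of the others, and column 26 had 48.0 and 15.6%. Columns 10 and 20 lay the other way, with 37.7 and 29.8% and with 37.3 and 29.5%. Depth per cell is not known here, and its part in the relation was not tested.

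**Figure D3:**
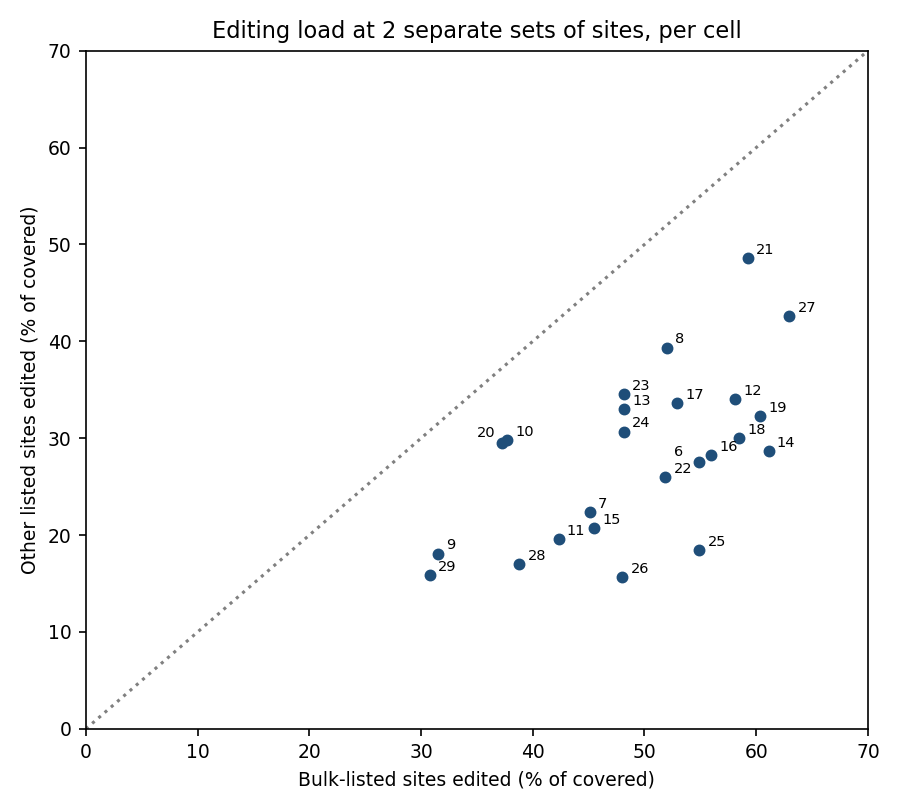
Share of covered bulk-listed sites edited (x axis, percent) against the share of covered other sites edited (y axis, percent), with 1 point per cell labelled by its column and the line of equal shares dotted. All 24 points lie below the line, from 30.8 and 15.8% for column 29 to 59.3 and 48.6% for column 21.

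A further comparison within cells set genes with several listed sites against genes with 1. The 105 sites of the 23 genes with several were edited at 39.3% ± 8.96 of those covered and the 66 sites of single-site genes at 28.4% ± 8.39 (SD, n = 24 cells). The difference was 10.9 points (SD 7.41), positive in 24 of 24 cells and between 1.37 points in column 22 and 29.9 in column 16. How many sites of a gene are listed was decided by editing in these same cells, so this too is a description. Coverage moved with it, at 92.7 against 80.2% of values, and its part was not tested. Sites with A directly 5′ of the edited C were edited at 36.0% ± 8.12 and the 30 sites with another base at 32.9% ± 10.8. That difference of 3.16 points (SD 8.63) was positive in 15 of 24 cells and smaller than its spread between cells. Among sites covered in all cells it was 8.62 points.

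No gene by itself sorted the cells. For 42 genes covered in at least 20 cells and edited in at least 6, the mean rate of the gene in each cell was set against the share of covered sites edited in all other genes. Pearson's r over the covered cells was positive for 35 of the 42, with a median of 0.22, and exceeded 0.4 for 2. These values are weak, rest on 21 to 24 cells of 1 mouse and share the unknown depth of each cell, and are given as a description.

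Cybb and Lamp2, at r of 0.47 each, came nearest. For Cybb r was 0.22 when only sites covered in all 24 cells were used, an alternative chosen after the data were seen. The mean rate of Cybb over its 8 sites ran from 0% through a median of 7.84% to 19.8%, and was 0 in columns 12 and 29, 18.1% in column 27 and 13.7% in column 21. Up to 6 of its sites were edited in a cell, in columns 8 and 23. At the Cybb site printed above 13 of 24 cells were edited, from 0% to 71.9% in column 7, with a median of 9.45%. This site by itself did not follow the load. Its rate was 0% in columns 21 and 27, the cells with the highest load, and 61.5% in column 26, whose load was low. Lamp2 had no edited site in 11 cells, columns 28, 29 and 8 among them, and its mean rate reached 18.0% in column 17 and 15.7% in column 21. The Lamp2 site printed above was edited in 3 of the 17 cells that covered it. After these came Rnf13 (0.39), an endosomal ubiquitin ligase, Nptn (0.36), Atp6ap2 (0.34), Atp6ap1 (0.33), Spp1 (0.33), Degs1 (0.32), Slc44a1 (0.31) and Arl8b (0.29). Single cells carried several of these values. Without column 27 Arl8b fell to 0.02, Rnf13 to 0.23, Atp6ap1 to 0.22 and Degs1 to 0.19, and without column 21 Spp1 fell to 0.17 and Slc44a1 to 0.20.

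The lowest values belonged to Ybx3 (-0.33), B2m (-0.22), the purine salvage enzyme Hprt (-0.13), the cyclin-dependent kinase Cdk14 (-0.13) and the proton pump subunit Atp6v0e (-0.06). Their sizes moved with single cells too. B2m stood at -0.10 without column 29, Hprt at 0.01 and Ybx3 at -0.21 without that cell, and Cdk14 at -0.37 without column 12. B2m was edited in every cell at 6 or 7 of its 7 sites, and its mean rate ran only from 12.4% through 18.6% to 27%. The lowest-load cell, column 29, had 24.2% and the highest, column 21, 21.2%. Spp1 was edited at all 3 sites in every cell, with a mean rate from 4.52% through 9.94% to 18.7%. Canx, the chaperone calnexin that helps to fold MHC class I, and Anxa5, a phospholipid-binding annexin, were each edited in 22 cells and Rtn4, which shapes the endoplasmic reticulum, in all 24, with r of 0.00, -0.05 and 0.03.

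**Figure D4:**
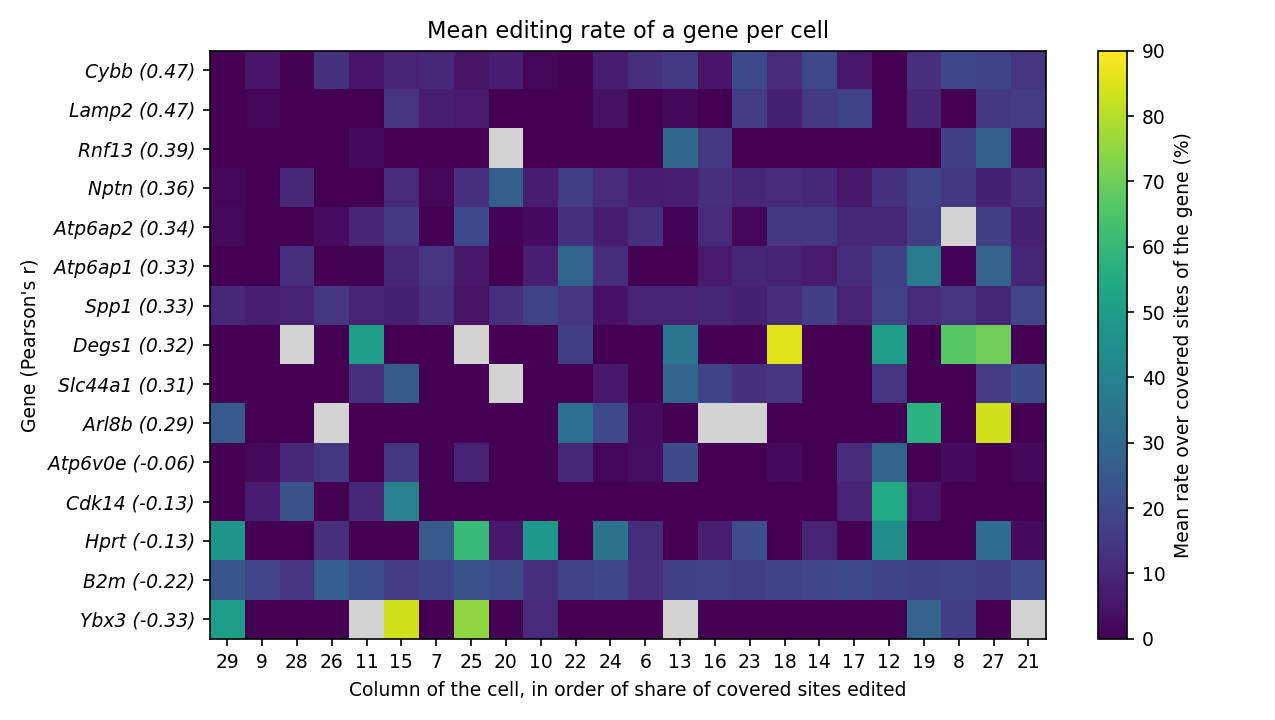
Mean editing rate of a gene over its covered sites (colour, percent; grey where no site was covered) for the 10 genes with the highest and the 5 with the lowest r against the load in all other genes, with r in brackets and cells ordered by the share of covered sites edited. High rates of Arl8b and Ybx3 sit in a few cells, while B2m lies between 12.4 and 27% in every cell.

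Genes with many sites gave much of the count. App had 15 sites, of which 0 (column 9) to 10 (columns 24 and 27) were edited, with a median of 5. Atp6ap2 had 11, with none edited in 4 cells and 8 in column 27. Msn and Nptn had 7 each, and at most 5 of either were edited, in columns 8 and 10 for Msn and in columns 8, 12 and 16 for Nptn. When 1 site per gene was kept, r between covered and edited sites rose to 0.565.

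Grouped by function, with lists chosen while earlier results of these data were known, the range over cells was wide for most groups. The 17 sites of 4 vacuolar proton pump genes (Atp6ap1, Atp6ap2, Atp6v0e and Atp6v1c1) were edited at 6.25% of those covered in column 29, 38.8% at the median and 68.8% in column 27. The 31 sites of 12 surface and adhesion genes, such as Msn, Nptn, Cd36 and Itgb2, ran from 10.7% in column 29 to 50% in column 10. The 15 genes of secretory and vesicle traffic, with Rtn4, Arl8b, Vps35 and Stx7 among them, had 2 to 8 edited genes per cell, with a share of sites from 11.8% in column 12 to 56.2% in column 21. The 2 genes of MHC class I assembly, B2m and Canx, differed least, with 87.5 to 100% of covered sites edited in every cell. In the groups with an r for at least 2 genes, the median r was 0.34 for the lysosome, 0.33 for the proton pump, 0.30 for secreted proteins, 0.24 for the amyloid precursor family, 0.24 for the surface genes, 0.19 for lipid handling, 0.15 for vesicle traffic, 0.15 for RNA-binding proteins and -0.11 for MHC class I, against 0.22 over all 42 genes. Each rests on 2 to 6 genes.

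Of 11 genes of the editing machinery and related deaminases, 3 had a listed site, and Apobec1 and A1cf did not. In Rbm47, whose protein binds the RNA for APOBEC1, the site at position 66018748 of chromosome 5 was covered in 12 cells and edited in columns 9 (50%), 12 (50%) and 21 (33.3%), which lie at both ends of the order. In Celf2, an RNA-binding splicing regulator, the site at position 6544964 of chromosome 2 was covered in 19 cells and edited in columns 8 (30.8%), 14 (42.9%), 21 (6.90%) and 28 (13.0%). In Adar, the adenosine deaminase, the site at position 89753117 of chromosome 3 was covered in 10 cells and edited in columns 23 (18.2%), 24 (15.8%) and 27 (33.3%). None of the 3 sites is on the bulk list, which compares the wild-type with the Apobec1-/- library. The base before the C is G at the Rbm47 and Adar sites and A at the Celf2 site. The values are editing rates of the transcripts and say nothing of how much of the protein a cell had.

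The extremes of the order can be set side by side. These cells were picked by their share edited, so more edited sites and genes in the high cell follow from that choice. The gene counts are of single pairs of cells and are given without the number of genes covered in both. Columns 21 and 29 had 146 sites covered in both, of which 57 were edited in column 21 only, 9 in column 29 only and 21 in both. The 13 genes edited in both were Anxa5, App, Atp6ap2, B2m, Canx, Fam129a, Hprt, Itm2b, Klhl9, Msn, Nptn, Rtn4 and Spp1. In 30 genes only column 21 was edited, among them Cybb, Lamp2, Lpl, Atp6ap1, Stx7, Slc44a1 and Igf1, and in 4 only column 29, namely Arl8b, Capza2, Sqle and Tgfbi. Columns 27 and 9 had 134 sites in common, with 50 edited in column 27 only, 10 in column 9 only and 20 in both. Here 24 genes were edited in column 27 only, among them App, Nptn and the Atp6ap1 and Atp6ap2 genes of the proton pump, and 6 in column 9 only, namely Alkbh5, Asah1, Atp6v0e, Cd302, Cdk14 and Sh3bgrl. Of the genes edited in column 21 and not in column 29, Alkbh5, Atp6v0e and Sh3bgrl were thus edited in column 9 and not in column 27, while Arl8b, Capza2 and Sqle switched sides the other way.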

How the data were processed

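Per the labels and the study's methods, adapters were trimmed by the authors (Trim Galore 0.2.5), uniquely aligned reads were kept from TopHat2 on mm10, and Picard removed duplicates. What was deposited for single cells is, per site and cell, a fraction of edited reads without read counts. The deposited bulk list gives the same fraction for the wild-type library and was used only for which sites it holds and their rate. How sites without a value were chosen is not given in the sources used here. The kit used for single cells does not mark strand, so overlapping genes cannot be told apart.

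Fractions were multiplied by 100. A site counted as edited above 0. By position, 2 gene names listed as spreadsheet dates were restored. Sites were placed on RefSeq GRCm38.p6 with pysam 0.24.0 and on GENCODE vM21. Differences within cells are given as means with the SD over cells. A sign-flip permutation test of 3 such differences was planned and run, but its p-values are not reported, since cells of 1 mouse are not replicates. Of relations over cells, 10 were computed, besides 42 of single genes, with no p. Of these, only the correlations of single genes were tried on simulated data, and the 10 relations over cells were not. The simulated data held a single edited or unedited call per gene and cell. They had no missing values and no mean rates over several sites, unlike the data here. There the correlations of single genes recovered a large simulated level shared by many genes but not a small one. Python 3.11.15, NumPy 2.4.6, SciPy 1.17.1, pandas 2.3.3 and matplotlib 3.10.9 were used.

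Named were genes covered in at least 20 and edited in at least 6 cells with the 10 highest and 5 lowest r, the 10 genes edited in most cells, the 10 with rates above 50% in most cells, the 5 leading genes of the 3 cells at each end, listed machinery genes and up to 4 members of each other list. Leading genes of the remaining cells and genes of single contrasts were named after their values were seen, and 1 of these genes is not reported here. Cells and lists were chosen with earlier results of these data known. The 2 bulk libraries entered no test. Alternatives were a higher rate to count as edited, sites covered in all cells, 1 site per gene, sites on or off the bulk list, no B2m or Spp1, other limits for a high rate, and each cell left out.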

Additional observations from a re-analysis of the deposited data

How the results depend on the processing

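The cells' median share of 36.8% was 47.6% over sites covered in all 24 cells, 50% over bulk-listed sites and 25.6% when a rate of at least 10% was asked. The lowest share of 20.9% was 31.7 and 30.8% over the first and second of these, and the highest, 52.2%, was 63.5 and 63.0%, and 39.8% at 10%. Genes edited, 29.5 at the median, were 17 and 15 over the first and second. The median of 5 rates above 50% was 2 over fully covered sites, 2.5 at 1 site per gene, 2 at bulk-listed and 3 at other sites, 8.5 above 40% and 1 above 75%. The median mean rate, 7.97%, was 10.3% at bulk-listed sites. The r of covered with edited sites, 0.378, was 0.565 at 1 site per gene and 0.159 where each cell was scored at sites chosen without it. The r between the shares at bulk-listed and other sites, 0.605, was 0.361 over fully covered sites and 0.394 at 1 site per gene. The difference by the base 5′ of the C, 3.16 points, was 8.62 over fully covered sites, 5.98 at 1 site per gene and 4.34 without B2m and Spp1. Leaving out each cell gave 2.37 to 3.75 points. Of the values of these results under the alternatives other than leaving out a cell, 71 moved little, 21 moved and the 3 of this difference just given grew. The causes were not tested. The other within-cell differences kept their direction under each alternative run. Alternatives for single genes' r were chosen after seeing the data. Leaving out each cell gave Hprt -0.22 to 0.0106. Reads per site, which are unknown here, limit every rate and every zero. No paired analysis was possible because the bulk and single-cell groups share fewer than 2 replicate numbers. This concerns pairs of samples and not the differences within a cell.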

Other observations

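The 3 sites that the annotation puts in introns stood apart from most others in how they were covered. In Fam129a the site at position 151574849 of chromosome 1 had a value in 6 cells and was edited in all 6, at 14.3 to 34.8%, and the one at position 151574907 was edited in 6 of 7, at up to 23.8%. The site of Ahcyl2 at position 29833033 of chromosome 6 was edited in 4 of 5 covered cells, at up to 33.3%. None of the 3 has an A directly 5′ of the C, which is G at both Fam129a sites and C at the Ahcyl2 site. The sequences around the Fam129a sites are nearly identical to each other, and the Ahcyl2 site ends a run of C. Whether reads were placed rightly at these sites was not tested, so they may not be editing. None is on the bulk list. Since the list asks for 3 edited cells, a site covered in few cells had to be edited in a large part of them. The coding site, in Akr1a1, was covered in all 24 cells and edited in 12, at up to 25.9%.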
